A study of Rattus norvegicus with 36 samples.

Results

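The genes of the respiratory chain are encoded in the mitochondrial and the nuclear genome, and their mRNAs were followed in H9C2 cells, an established rat cardiac myoblast cell line. Members were the protein-coding genes of the mitochondrial chromosome and those whose names begin with Nduf, Sdha, Sdhb, Sdhc, Sdhd, Uqcr, Cox4, Cox5, Cox6, Cox7, Cox8 or Atp5. The rule found 106 of the 24275 genes listed, of which 13 are mitochondrial and 93 nuclear, and it used no measured value. Cells had been transfected with 25 nmol/L of a mimic control (MC), of a miR-125b mimic or of a mimic of an isomiR, a form of the miRNA with another 3′ end, and were then kept in normoxia or hypoxia. One isomiR was longer (Plus A) and 3 were trimmed at the 3′ end (Trim A, Trim AG, Trim AGU). By the paper's methods, hypoxic cells were in serum-free low-glucose medium, while normoxic cells were kept under normal conditions with fresh medium. Oxygen and medium therefore cannot be told apart in any comparison of hypoxia with normoxia. An oxygen response below means the whole of that difference. Counts of 33 libraries were used, 3 for each of 11 groups: Hypoxia MC, and normoxia and hypoxia for miR-125b and each isomiR. Every comparison with MC is within hypoxia, and single libraries of its normoxia group were not used here. No untransfected cells were among the groups, and the labels do not say that replicates came from separate cultures, so p-values measure the spread between these libraries, which may be technical.

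Electrons from NADH and succinate enter the chain at complex I and complex II and pass through complex III and cytochrome c to complex IV, which hands them to oxygen. Complexes I, III and IV pump protons, and complex V, the ATP synthase, uses the gradient to make ATP. Complex II is built from nuclear genes alone, while the other complexes mix subunits of both genomes, and several subunits of complex IV exist as isoforms that differ between tissues or with oxygen.

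The mimics differ only at the 3′ end, so their sequences are shown together here, with the seed (bases 2 to 8 from the 5′ end) in capitals. The miR-125b sequence is that of RefSeq (GRCr8, chr11:29732588-29732609, plus strand, *Mir125b2*), and the isomiRs were derived from it by the changes that the paper names.
miR-125b: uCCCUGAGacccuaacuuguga
Plus A: uCCCUGAGacccuaacuugugaa
Trim A: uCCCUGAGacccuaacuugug
Trim AG: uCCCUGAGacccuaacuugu
Trim AGU: uCCCUGAGacccuaacuug
All 5 share the seed, and their lengths run from 19 to 23 bases. Where 5 values follow each other below, they are in the order miR-125b, Plus A and then the trimmed forms from the longest (Trim A) to the shortest (Trim AGU).

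The mitochondrial mRNAs of complexes III and IV and *Mt-atp6* had the highest levels of all members. Scaled for gene length as FPKM, the mean level over all libraries was 8203 for *Mt-co1*, which encodes the catalytic core of complex IV, 6980 for *Mt-cox3* and 5325 for *Mt-co2*, its other mitochondrial subunits. *Mt-atp6*, a membrane subunit of complex V, was at 5599 FPKM, and *Mt-cytb*, the cytochrome b of complex III, at 4093. The lowest mitochondrial one was *Mt-atp8*, another membrane subunit of complex V, at 128 FPKM. The mitochondrial subunits of complex I spanned 217 FPKM for *Mt-nd4* to 2105 for *Mt-nd2*. *Atp5b*, the catalytic beta subunit of complex V, was the nuclear member with the highest level, at 1054 FPKM, so that the ranges of both genomes overlapped. The median nuclear subunit of complexes I and II stood at 82.1 and 82.8 FPKM, that of complexes III, IV and V at 92.3, 159 and 209, and that of the assembly factors and regulators at 9.68.

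The cells carried part of a muscle programme. *Myod1* was at 17.3 to 150 CPM (counts scaled to a common library size) and *Gata4* at 8.21 to 16.9, while *Myf5*, *Myf6*, *Pax7*, *Myh6*, *Myh7* and *Nkx2-5* were at or near 0, as were *Ptprc* (white blood cells), *Epcam* and *Cdh1* (epithelium). Fibroblast markers were mixed: *Thy1* was at 76.2 CPM or more in every library, *Dcn* at 0.825 to 42.2 and *Pdgfra* at 0.0252 to 0.875. Total counts ran from 28361216 to 42672584, with the 3 Hypoxia Trim AG libraries the deepest. In replicates 2 and 3 of Hypoxia Trim A, Trim AG and Trim AGU, short genes other than the members stood above long ones: the median log2 deviation of 1119 genes below 1000 bases exceeded that of 2462 genes above 4000 bases by 0.25 to 1.13, against -0.55 to 0.12 in all other libraries. The median gene length was 748 bases for the nuclear and 784 for the mitochondrial members against 2111 for all protein-coding genes, and the part of gene length in the comparisons below was not tested beyond a refit without each library's length trend. One exchange of libraries is possible. *Cav1*, which separates Plus A from miR-125b in hypoxia (90.1 to 95.6 against 236 to 239 CPM), was at 271 CPM in replicate 1 of Normoxia Plus A and 103 and 103 in the others, and at 106 in replicate 1 of Normoxia miR-125b and 287 and 266 in the others. Both libraries labelled replicate 1 therefore go against their labels for this gene, and results are also given without them.

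The 13 mitochondrial members took 3.12% to 5.58% of all counts of a library. The share was 3.58% ± 0.181 (SD, n = 3) in Normoxia miR-125b and 3.47% ± 0.0649 in Hypoxia miR-125b, and 3.37% ± 0.102 and 3.44% ± 0.296 for Plus A. For the trimmed forms, from the longest to the shortest, it was 4.22% ± 0.802, 4.37% ± 0.874 and 4.38% ± 1.18 in hypoxia, against 3.43% ± 0.0801, 3.53% ± 0.0700 and 3.61% ± 0.501 in normoxia. These 3 hypoxia groups each held 1 library at the level of normoxia and a pair above it: 3.35, 4.93 and 4.39% for Trim A, 3.45, 5.18 and 4.48% for Trim AG, and 3.21, 5.58 and 4.35% for Trim AGU. The libraries above were the same ones in which short genes stood high. The 93 nuclear members together took 0.874% ± 0.0284 in Hypoxia MC, 0.947% to 1.04% as means of the normoxia groups, and 0.932% (Plus A) to 1.23% (Trim AGU) as means of the other hypoxia groups. In bulk RNA, fewer cells of a kind and less RNA per cell cannot be told apart.

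**Figure D1:**
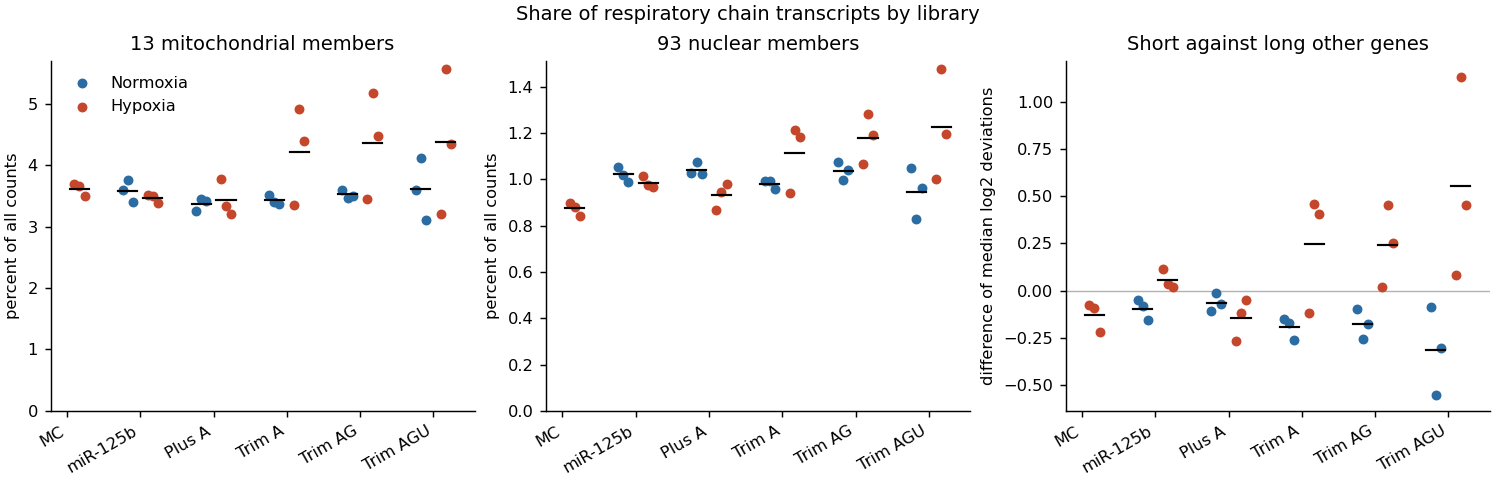
Percent of all counts in the 13 mitochondrial members (left) and the 93 nuclear members (middle), and the difference in median log2 deviation between short and long genes that are no members (right), for each of the 33 libraries. Points are libraries, black lines group means, blue normoxia and red hypoxia; in Hypoxia Trim A, Trim AG and Trim AGU the same libraries stand high in all 3 panels, up to 5.58% and 1.48%.

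Hypoxia was first compared with normoxia within each mimic, with edgeR's quasi-likelihood test and Benjamini-Hochberg adjusted p-values below 0.05. With miR-125b, 18 of the 101 tested members rose and 32 fell, beside 24.7% and 26.1% of all genes, and the median member moved by -0.05 (log2). With Plus A, 8 rose and 37 fell of 101, beside 23.9% and 25.3% of all genes, with a median of -0.15. With Trim A, 31 rose and 6 fell of 100 (23.4% and 24.2% of all genes), with Trim AG 49 rose and 6 fell of 101 (27.3% and 27.3%), and with Trim AGU 27 rose and 1 fell of 99 (15.4% and 14.8%). The medians of these 3 were 0.21, 0.31 and 0.58. Without each library's length trend the counts of higher and lower members became 13 and 39 for miR-125b, 10 and 37 for Plus A, 22 and 14 for Trim A, 43 and 15 for Trim AG, and 16 and 5 for Trim AGU. The Trim counts rested on single libraries: 63 members rose with Trim A without Hypoxia replicate 1 and 12 without Normoxia replicate 3, and 47 rose with Trim AGU without Hypoxia replicate 1 and 4 without Normoxia replicate 2. For Trim AG the lowest and highest counts were 34 without Normoxia replicate 3 and 69 without Hypoxia replicate 1. Without Normoxia miR-125b replicate 1, 22 members rose and 30 fell with miR-125b, and without Normoxia Plus A replicate 1, 6 rose and 42 fell with Plus A.

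Among the mitochondrial members, mRNAs for complex I fell in hypoxia with miR-125b while those for complexes IV and V did not pass the test. All 7 complex I mRNAs and *Mt-cytb* fell, and none of the 13 rose. *Mt-nd4* was at 432, 395 and 399 CPM in Normoxia miR-125b and at 250, 243 and 237 in Hypoxia miR-125b, a log2 fold change of -0.76 ± 0.05 (SE, adjusted p = 1.8e-06). *Mt-nd4l* was at 430, 447 and 340 CPM against 218, 227 and 206, a log2 fold change of -0.92 ± 0.09 (adjusted p = 3.59e-05). The groups did not overlap for either. *Mt-nd2* fell by 0.46, *Mt-nd3* by 0.41, *Mt-nd1* by 0.34, *Mt-nd5* by 0.33, *Mt-cytb* by 0.26 and *Mt-nd6* by 0.25 (log2). *Mt-co1* was at 11596, 12412 and 11352 CPM in normoxia and 11726, 11723 and 11547 in hypoxia, with a log2 difference of -0.03.

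The same comparison with Plus A gave 5 lower mitochondrial members, all of complex I: *Mt-nd3* (-0.58 ± 0.08, adjusted p = 0.000213), *Mt-nd4l* (-0.48 ± 0.08), *Mt-nd2* (-0.33), *Mt-nd5* (-0.25) and *Mt-nd1* (-0.23). *Mt-nd4* did not pass, at -0.16 with overlapping libraries (365, 292 and 259 CPM in normoxia, 312, 272 and 238 in hypoxia). With Trim A, *Mt-nd4l* fell (-0.39, adjusted p = 0.0364) and *Mt-cox3* rose (0.40, adjusted p = 0.0307), and each call was lost without any of several single libraries. With Trim AG, 4 members of complexes IV and V rose: *Mt-atp8* by 0.62, *Mt-cox3* by 0.55, *Mt-co2* by 0.50 and *Mt-atp6* by 0.47 (adjusted p = 0.0082 to 0.0206). *Mt-cox3* shows how these were made up. Its Normoxia Trim AG libraries were at 4767, 4684 and 4607 CPM and those of hypoxia at 5303, 8277 and 6944. All 3 hypoxia libraries were higher, replicates 2 and 3 by far the most. With Trim AGU only *Mt-atp8* passed (0.81, adjusted p = 0.0274), a call lost without any Normoxia Trim AGU library or Hypoxia replicate 3, or without the length trend. *Mt-nd4* and *Mt-nd4l* were at -0.63 and -0.76 without passing. Both were called lower without the length trend, at -0.88 and -1.10 (adjusted p = 0.0094 and 0.0286 in edgeR). Hypoxia Trim AGU replicate 2 held 8328 CPM of *Mt-co2* beside 3116 and 4353 in the other libraries, and 145 CPM of *Mt-nd4l* beside 221 and 275. Mitochondrial genes that overlap (*Mt-nd4l* and *Mt-nd4*, *Mt-atp8* and *Mt-atp6*, and *Mt-nd5* and *Mt-nd6* on opposite strands) could share reads, since the libraries were not stranded. The mitochondrial rRNAs were caught in traces, with group means of 0.0350% to 0.0460% of all counts in normoxia and 0.0458% to 0.0948% in hypoxia, given without a test.

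**Figure D2:**
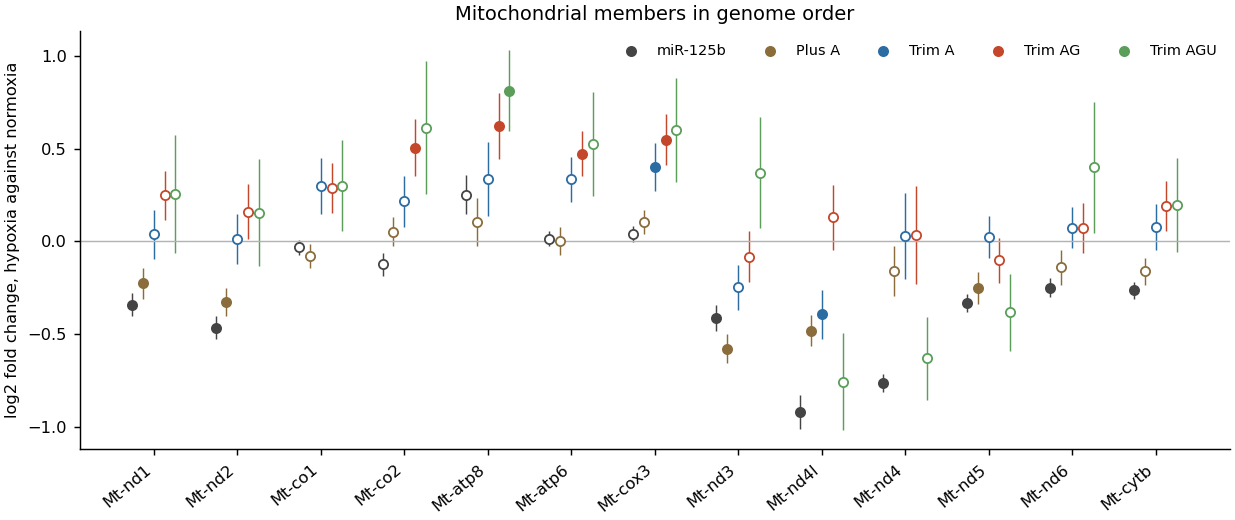
Log2 fold change (± SE) of each of the 13 mitochondrial members, in genome order, in hypoxia against normoxia for each mimic. Filled points have an adjusted p below 0.05 and open points do not; with miR-125b the complex I mRNAs lie below 0 down to -0.92, and with Trim AG and Trim AGU *Mt-co2*, *Mt-atp8*, *Mt-atp6* and *Mt-cox3* lie above 0.

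Nuclear subunits of complex I, which oxidizes NADH, moved in both directions. With miR-125b, 9 of 32 rose and 6 fell (28.1% and 18.8%), which is near the 24.7% and 26.1% of all genes. With Plus A 2 rose and 10 fell (6.25% and 31.2%, beside 23.9% and 25.3% of all genes). With Trim A 16 of 32 rose and 1 fell, with Trim AG 21 of 31 rose and 1 fell, and with Trim AGU 12 of 31 rose and 1 fell, where 50%, 67.7% and 38.7% higher stand beside 23.4%, 27.3% and 15.4% of all genes. The subunit that fell in all 5 comparisons was *Ndufs1*, the iron-sulfur subunit that is the largest of the complex. It was at 144, 146 and 126 CPM in Normoxia miR-125b and at 102, 96.2 and 101 in hypoxia. The values were 129, 135 and 133 against 75.0, 91.2 and 83.1 with Trim AG, and 152, 162 and 146 against 97.2, 91.7 and 120 with Trim AGU. Every hypoxia library lay below every normoxia library of its mimic. The log2 fold changes were -0.50 ± 0.06, -0.45, -0.38, -0.67 and -0.56 (adjusted p = 0.000124 to 0.0228), and that of Trim AGU lost its call without any 1 of its normoxia libraries (-0.68 to -0.50 over all alternatives).

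*Ndufv3*, an accessory subunit of the NADH-binding module, rose in all 5 comparisons. It was at 67.3, 57.3 and 61.5 CPM in Normoxia miR-125b and 92.5, 88.9 and 91.4 in hypoxia, and at 45.1, 47.5 and 47.1 against 94.9, 95.8 and 101 with Trim AG. The rise over the 5 mimics was 0.54 ± 0.06, 0.45 ± 0.08, 0.61 ± 0.08, 1.07 ± 0.07 and 1.18 ± 0.20 (adjusted p = 5.7e-06 to 0.00569). It held without any single library and without the length trend. *Ndufa6*, another accessory subunit, rose by 0.54 with miR-125b and by 0.75, 0.95 and 1.29 with the 3 trimmed forms, and stood at 0.21 with Plus A, which did not pass. *Ndufa7* rose by 1.28 with Trim AGU (adjusted p = 0.0174). *Ndufa10* rose by 0.30 with Plus A (adjusted p = 0.00553).

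Complex II, which oxidizes succinate, had only 4 subunits. Of these 2 fell with miR-125b and 2 with Plus A, above the 26.1% and 25.3% of all genes. None passed with Trim A or Trim AGU, and 1 rose and 1 fell with Trim AG. *Sdhd*, its membrane anchor, changed by -0.30, -0.47 and -0.29 with miR-125b, Plus A and Trim AG, all called. Without the length trend it was called lower with all 5 mimics, at -0.45 with Trim AGU (adjusted p = 0.0185 in edgeR). For complex III, of 7 subunits 3 fell and 1 rose with miR-125b and 3 fell with Plus A, where the lower counts again exceed the shares of all genes. *Uqcrh*, the hinge protein near cytochrome c1, fell by 0.38 with miR-125b and 0.73 with Plus A (adjusted p = 5.22e-05), and by 0.30 with Trim AG (adjusted p = 0.0464), a call lost without some single libraries. *Uqcrq*, a small subunit of the same complex, went the other way and rose by 0.39 with miR-125b and by 0.50, 0.91 and 1.38 with the 3 trimmed forms, while Plus A gave -0.09.

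Complex IV, where oxygen is reduced, had 4 higher and 6 lower nuclear subunits of 17 with miR-125b (23.5% and 35.3%, not far from all genes) and 4 higher and 8 lower of 17 with Plus A (23.5% and 47.1%). With Trim A 4 of 16 rose and 2 fell, with Trim AG 7 of 18 rose and 2 fell, and with Trim AGU 3 of 16 rose. Of these higher counts only that with Trim AG is clearly above the share of all genes, and the lower counts are below it. *Cox6c*, a small nuclear subunit, was at 201, 187 and 175 CPM in Normoxia miR-125b and 117, 108 and 109 in hypoxia, and at 178, 187 and 184 against 97.6, 97.5 and 104 with Plus A. Groups were far apart in both, at -0.77 ± 0.06 (adjusted p = 5.79e-06) and -0.88 ± 0.05 (adjusted p = 1.42e-06). With Trim A and Trim AG it fell by 0.45 and 0.38, calls that were lost without some single libraries (-0.68 to -0.25 over both), and with Trim AGU it was at -0.05 (adjusted p = 0.913). Hypoxia Trim AGU held 102 and 145 CPM in 2 libraries and 224 in replicate 2. *Cox5a*, which lies on the matrix side of the complex, fell by 0.72 with miR-125b and 0.74 with Plus A (adjusted p = 3.73e-06 and 2.51e-05) and by 0.33 with Trim A (adjusted p = 0.049), and was at -0.18 and -0.09 with Trim AG and Trim AGU. Without the length trend it was called lower with all 5 mimics, at -0.50 with Trim AGU (adjusted p = 0.018 in edgeR).

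Complex V had 7 lower and 1 higher of 16 nuclear subunits with miR-125b (43.8% and 6.25%) and 9 lower with Plus A (56.2%). With Trim A 3 were higher and 1 lower, with Trim AG 5 and 1, and with Trim AGU 3 were higher. For these 3 mimics the higher counts are not far from the shares of all genes, and the lower ones are below them. The 3 genes for subunit c, which forms the rotating ring, fell together with miR-125b and Plus A: *Atp5g3* by 0.55 and 0.72, *Atp5g1* by 0.40 and 0.75, and *Atp5g2* by 0.24 and 0.47. In the 3 Trim comparisons they were between -0.27 and 0.45 and none passed. Without the length trend, however, each of these 3 genes was called lower in 4 of the 5 comparisons. *Atp5a1*, the alpha subunit, fell by 0.43, 0.50, 0.25 and 0.28 with miR-125b, Plus A, Trim A and Trim AG and was at -0.11 with Trim AGU. The Trim A and Trim AG calls were lost without some single libraries.

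No assembly factor or regulator among the members fell, and 3, 2, 6, 9 and 7 of 12 rose (25%, 16.7%, 50%, 75% and 58.3%), of which the first is near the share of all genes. *Ndufaf3*, which acts early in the assembly of complex I, rose in all 5 comparisons, by 0.46, 0.41, 0.83, 0.78 and 1.13. *Ndufaf7*, a methyltransferase needed to assemble complex I, rose by 0.18, 0.20, 0.36, 0.47 and 0.61, and only its Trim A call held without each single library. *Ndufaf4*, which binds *Ndufaf3*'s product, rose by 0.82 ± 0.11 with Trim AG (adjusted p = 0.000234). *Ndufaf6*, another early factor, rose by 0.77 with Trim A (adjusted p = 0.00228). The list of assembly factors outside the name rule gave 9 higher and 2 lower of 32 with miR-125b (28.1% and 6.25%), 7 and 6 with Plus A (21.9% and 18.8%), 13 and 1 with Trim A, 17 and 3 with Trim AG and 14 and 0 with Trim AGU. Over the members, 5 rose in all 5 comparisons (*Ndufaf3*, *Ndufaf7*, *Ndufv3*, *Cox6a2* and *Cox7a2l*), and *Ndufs1* alone fell in all 5, a selection made after their values were seen. How many of all genes did so was not counted. Without the length trend 6 rose in all 5 (*Ndufaf3*, *Ndufa6*, *Ndufa7*, *Ndufv3*, *Cox6a2* and *Cox7a2l*) and 3 fell (*Ndufs1*, *Sdhd* and *Cox5a*).

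**Figure D3:**
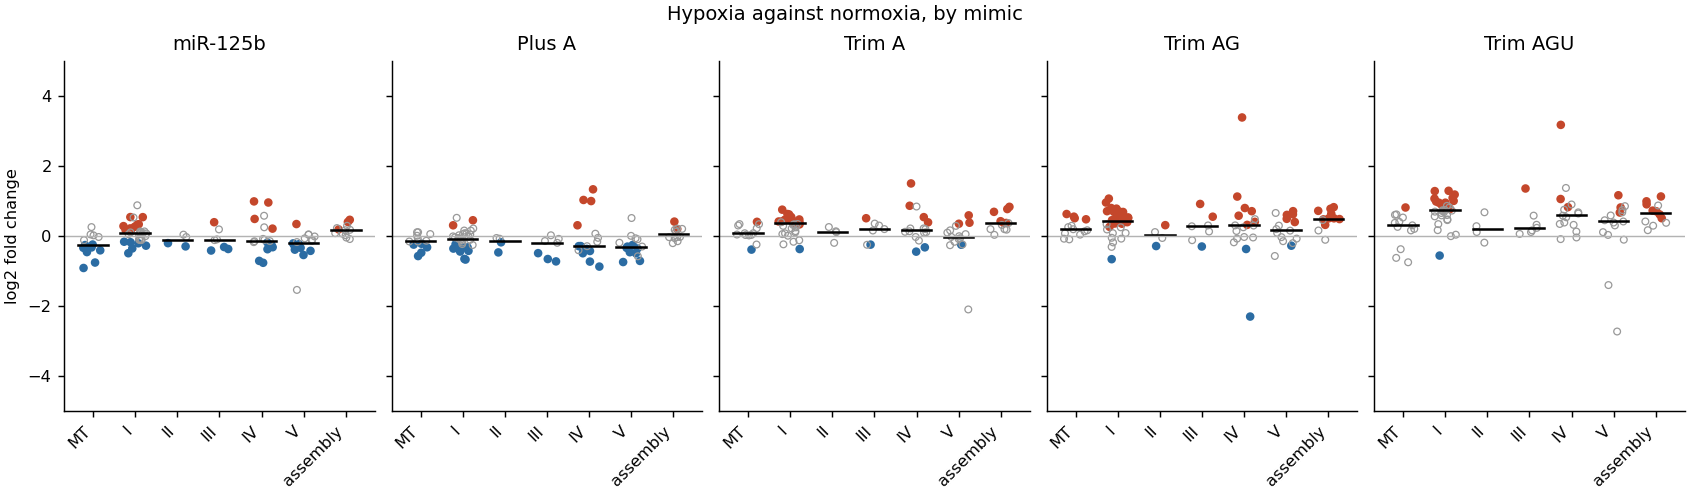
Log2 fold change of every tested member in hypoxia against normoxia, in 1 panel for each mimic, with the mitochondrial members and the nuclear members by complex in columns. Red points were called higher, blue lower and open grey not called, and black lines are medians; the median of all members runs from -0.15 with Plus A to 0.58 with Trim AGU.

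Each mimic was then compared with MC in hypoxia, where all 5 comparisons share the 3 Hypoxia MC libraries. With miR-125b, 54 of 101 tested members were higher and 9 lower than with MC, beside 29.5% and 30% of all genes, with a median difference of 0.20 (log2). Plus A gave 31 higher and 11 lower (28% and 28.6% of all genes, median 0.06) and Trim A 53 and 3 (26% and 26.1%, median 0.35). Trim AG gave 71 and 5 (29.8% and 29.6%, median 0.48) and Trim AGU 36 and 1 (15.3% and 14.6%, median 0.66). Without the length trend the counts were 49 and 17, 34 and 11, 53 and 6, 66 and 8, and 36 and 1. The Trim AGU count was 0 without Hypoxia MC replicate 3, 5 without Hypoxia Trim AGU replicate 3, 60 without its replicate 2 and 74 without its replicate 1, and the Trim A count was 85 without Hypoxia Trim A replicate 1 and 31 without its replicate 3 or Hypoxia MC replicate 3. Hypoxia MC also stood apart in the summed level of 15 muscle markers. It was 1144, 1143 and 1162 CPM in its libraries against 166 to 374 in all others, led by *Myog*, *Tnnt2* and *Myh3*. *Myf5*, *Myf6*, *Myh6* and *Myh7* were at or near 0 there too. Some others did not stand apart in this way. *Gata4* was lowest in Hypoxia MC, at 8.73 CPM against 11.7 to 15.4 as means of the other groups. *Myod1* (60.2 CPM) and *Des* (1.7 CPM) lay between the normoxia groups and the other hypoxia groups. *Acta1* was at 158 CPM against 159 in Hypoxia Trim AG. The part of the muscle markers in the comparisons with MC was not tested.

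Most of the higher members were nuclear, as are 93 of the 106 members. Of the 13 mitochondrial members, 1, 2, 1, 8 and 1 were higher and 1, 2, 0, 0 and 0 lower over the 5 mimics. The 8 with Trim AG are above the 29.8% of all genes, and the other higher counts are below the shares of all genes. *Mt-nd4* was higher with the first 4 mimics, by 0.29, 0.47, 0.67 and 0.61, from 223, 155 and 217 CPM in Hypoxia MC. The calls with miR-125b and Trim AG were lost in DESeq2 and without the length trend. *Mt-co1* was slightly lower with miR-125b and Plus A (-0.07 and -0.16, adjusted p = 0.0406 and 0.0392). With Trim AG, *Mt-nd4l* (0.79), *Mt-nd2* (0.51), *Mt-nd1* (0.50), *Mt-atp8* (0.47), *Mt-co2* (0.42), *Mt-atp6* (0.40) and *Mt-cytb* (0.37) were higher as well, of which *Mt-nd4l* and *Mt-nd1* kept their calls without each single library and *Mt-nd2*, *Mt-atp8*, *Mt-co2* and *Mt-atp6* did not. Without the length trend *Mt-cytb* (0.25, adjusted p = 0.0692 in edgeR) and *Mt-co2* (0.27, adjusted p = 0.0618) lost their calls. *Mt-nd3* was lower with Plus A, at -0.27 ± 0.05 (adjusted p = 0.00124).

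Complexes I and V held the most higher nuclear members by number, though not always by share. Of 16 nuclear subunits of complex V, 11, 8, 10, 11 and 7 were higher than with MC (68.8%, 50%, 62.5%, 68.8% and 43.8%), and 2, 2, 0, 0 and 0 lower. *Atp5b* was at 1348, 1295 and 1262 CPM with MC and at 1781, 1698 and 1744 with miR-125b. The levels were 1576, 1625 and 1671 with Plus A, 1662, 1980 and 1950 with Trim A, 2013, 2104 and 2118 with Trim AG, and 1809, 2351 and 1973 with Trim AGU. Every library of every mimic lay above all 3 of MC. The log2 differences were 0.42 ± 0.03 (adjusted p = 5.79e-07), 0.33, 0.51, 0.68 and 0.66. *Atp5l*, the g subunit of the membrane part, was higher by 0.48, 0.44, 0.65, 0.83 and 0.96. *Atp5g2* and *Atp5j2*, the f subunit, were lower with miR-125b (-0.25 and -0.34) and with Plus A (-0.51 and -0.46).

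In complex I, 20, 10, 19, 26 and 13 of 32 nuclear subunits were higher (62.5%, 31.2%, 59.4%, 81.2% and 40.6%) and 2, 2, 2, 2 and 0 lower. The 31.2% with Plus A is near the 28% of all genes. *Ndufs8*, an iron-sulfur core subunit, was at 75.6, 74.5 and 70.3 CPM with MC and at 107, 101 and 102 with miR-125b, and no library of any other hypoxia group was below 96.6. It was higher by 0.49 ± 0.04 with miR-125b (adjusted p = 1.01e-06) and by 0.49, 0.83, 0.91 and 1.14 with the isomiRs. *Ndufb9*, an accessory subunit of the membrane arm, was higher by 0.42, 0.27, 0.77, 0.99 and 1.09. *Ndufs1* went against this set, lower by 0.29, 0.27, 0.22 and 0.55 in the first 4 comparisons. The Trim A difference lost its call without the length trend or without some single libraries. *Ndufa2*, an accessory subunit, was higher by 1.16 with Trim AGU (adjusted p = 0.0372).

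The other groups held fewer higher members by number. In complex II 4, 2, 4, 3 and 2 of 4 subunits were higher (100%, 50%, 100%, 75% and 50%) and none lower, with *Sdhb*, its iron-sulfur subunit, higher in all 5 (0.30, 0.22, 0.48, 0.53 and 0.89). In complex III 3, 1, 2, 5 and 3 of 7 were higher, and *Uqcrh* was lower with miR-125b (-0.31) and Plus A (-0.59). *Uqcrb*, a subunit near the ubiquinone site, was higher by 0.45 with miR-125b (adjusted p = 3.01e-05). In complex IV 8, 3, 9, 10 and 4 of 17 were higher and 1, 3, 1, 2 and 1 lower. *Cox5a* was higher in all 5, by 0.22, 0.23, 0.53, 0.62 and 0.67. Of 12 assembly factors and regulators 7, 5, 8, 8 and 6 were higher and 1, 1, 0, 1 and 0 lower. *Ndufaf6* was at 3.00, 1.70 and 2.36 CPM with MC and was higher by 1.19 ± 0.21, 1.05 ± 0.21, 1.66 ± 0.21, 0.71 and 1.48 ± 0.33. *Ndufaf2* was higher with Trim A (0.79) and Trim AG (0.94), *Ndufaf5* with Trim AG (0.94) and Trim AGU (1.08), and *Atp5s*, a coupling factor of the ATP synthase, with Trim A (0.66). In all 5 comparisons 16 members were higher, among them, chosen after their values were seen, *Atp5s*, *Ndufaf3*, *Ndufaf4*, *Ndufaf6*, *Ndufb7*, *Ndufb9*, *Ndufc2*, *Ndufs7*, *Ndufs8*, *Sdhb*, *Uqcrc1*, *Cox5a*, *Atp5b*, *Atp5c1* and *Atp5l*. With Trim AGU most such calls were lost without any 1 of the Hypoxia MC libraries. How many of all genes were higher in all 5 was not counted, and these comparisons share their MC libraries.

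**Figure D4:**
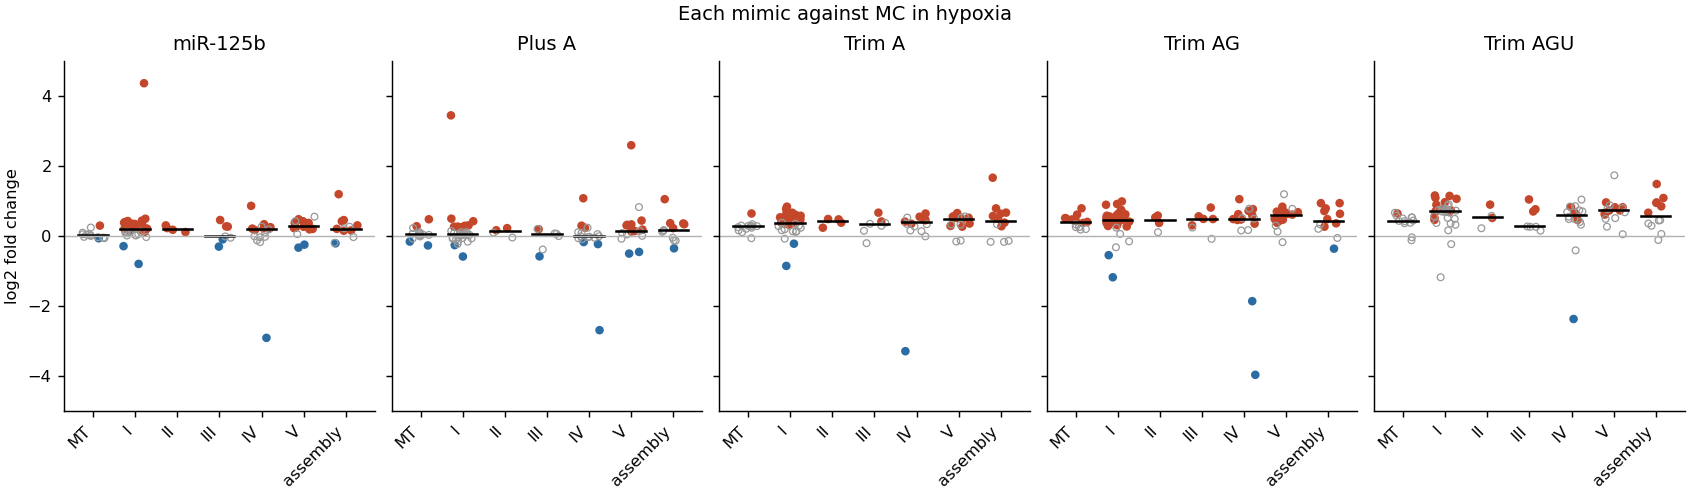
Log2 difference of every tested member between each mimic and MC in hypoxia, in 1 panel for each mimic, with the mitochondrial members and the nuclear members by complex in columns. Red points were called higher, blue lower and open grey not called, and black lines are medians; the point far below the others in complex IV is *Cox8b*, at -2.38 to -3.98.

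The isomiRs were compared with miR-125b at the same dose and oxygen, with the same miR-125b libraries in all 4 comparisons of a condition. In normoxia, Plus A gave 0 called members beside 0% of all genes, with 2 members at an unadjusted p below 0.05 in edgeR and 0 calls in DESeq2. Without replicate 1 of both groups, the libraries that go against their labels, 4 members were higher and 1 lower. Trim A gave 0 as well, beside 1.43% and 0.489% of all genes called higher and lower, with 6 members at an unadjusted p below 0.05 and 1 lower member in DESeq2. The median member differed from miR-125b by 0.02 with Plus A and -0.06 with Trim A (log2), and *Cox6a2*, the muscle isoform described below, by 0.12 ± 0.13 and -0.26 ± 0.13 (SE). A p that misses the threshold does not show that the mimics acted alike. Trim AG gave 2 higher and 15 lower, beside 19.0% and 19.6% of all genes, and Trim AGU 0 higher and 8 lower, beside 13.3% and 11.7%. With both mimics, members were called less often than all genes in either direction. *Sdhd* (0.41 ± 0.08, adjusted p = 0.00263) and *Ndufb6* (0.23 ± 0.06), an accessory subunit of complex I, were the higher ones with Trim AG. The lower ones included *Ndufaf6* (-0.68), *Ndufv3* (-0.41) and *Ndufb10* (-0.37) with Trim AG, and *Ndufv3* (-0.45), *Ndufb10* (-0.43) and *Ndufb8* (-0.40), both accessory subunits of complex I, with Trim AGU. The 15 ran from 6 without Normoxia Trim AG replicate 3 to 24 without Normoxia miR-125b replicate 3, and the 8 from 3 without Normoxia Trim AGU replicate 3 or Normoxia miR-125b replicate 2 to 16 without Normoxia Trim AGU replicate 1. Without Normoxia miR-125b replicate 1 they were 9 and 4.

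In hypoxia Plus A gave 2 higher and 8 lower members, beside 8.36% and 7.55% of all genes. Members were thus called lower about as often as all genes, and higher less often. *Ndufa10*, an accessory subunit of complex I, and *Mt-nd4l* were higher by 0.22 and 0.30. The lower ones were led by *Ndufb11* (-0.33), *Sdhaf4* (-0.32), an assembly factor of complex II, *Uqcrh* (-0.28), *Ndufb10* (-0.27) and *Atp5g2* (-0.26), with *Mt-nd3* at -0.24. The lower count was 21 without Hypoxia Plus A replicate 3 and 1 without Hypoxia miR-125b replicate 1. Trim A gave 0 called members beside 1.27% and 0.920% of all genes, with 22 at an unadjusted p below 0.05 and 3 higher and 1 lower in DESeq2, and without Hypoxia Trim A replicate 1 the count of higher members was 79. Trim AG gave 42 higher and 5 lower, beside 20.9% and 20.5% of all genes, with 75 higher without Hypoxia Trim AG replicate 1 and 13 without Hypoxia miR-125b replicate 2. Trim AGU gave 1 higher and 0 lower, beside 2.09% and 2.06%, with 22 higher without Hypoxia Trim AGU replicate 1 and 7 without its replicate 2. The single member was *Cox6a1* (0.85 ± 0.14, adjusted p = 0.0236). The median member differed by -0.08, 0.21, 0.28 and 0.44 with the 4 isomiRs.

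With Trim AG in hypoxia the higher members included *Ndufaf5* (0.71), *Ndufaf4* (0.62 ± 0.11, adjusted p = 0.00263), *Mt-nd4l* (0.81 ± 0.18, adjusted p = 0.00834), *Mt-nd2* (0.50), *Mt-nd1* (0.47) and *Mt-co2* (0.46). The lower ones were *Cox7b2*, *Ndufa1*, *Ndufaf6* (-0.49), *Sdhaf4* (-0.34) and *Ndufs1* (-0.27), of which *Ndufaf6* and *Ndufs1* lost their calls under most of the alternatives. *Ndufaf4* and *Mt-nd4l* kept theirs without each single library, and *Mt-nd1*, *Mt-nd2* and *Mt-co2* did not.

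The oxygen responses themselves were compared with that of miR-125b, as the difference of the 2 log2 fold changes. Trim AG differed in 36 members, all with the higher response, beside 22.7% of all genes called and 11.4% called higher. The median difference of all members was 0.33. The 36 were 31 nuclear and 5 mitochondrial, with 12 of 32 nuclear subunits of complex I, 0 of 4 of complex II, 2 of 7 of complex III, 7 of 18 of complex IV, 7 of 16 of complex V and 3 of 12 assembly factors. Without the length trend 43 were called. *Cox6a2* (2.36 ± 0.20, adjusted p = 2.29e-05), *Mt-nd4l* (1.01 ± 0.23, adjusted p = 0.00732) and *Ndufaf4* (0.87) had large differences. The count was 10 without Normoxia Trim AG replicate 2 or Hypoxia miR-125b replicate 3, 12 without Normoxia miR-125b replicate 1 and 69 without Hypoxia Trim AG replicate 1. Plus A gave 0 beside 0.0385% of all genes, with 22 members at an unadjusted p below 0.05 and 5 in DESeq2. Trim A gave 0 beside 0.811%, with 35 at an unadjusted p below 0.05, 4 in DESeq2 and 67 without Hypoxia Trim A replicate 1. Trim AGU gave 1, *Cox6a2*, beside 0.966%, with 53 at an unadjusted p below 0.05, 2 in DESeq2 and 59 without Hypoxia Trim AGU replicate 1.

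Isoform pairs of complex IV were read within each library, where a share of the summed FPKM of the pair does not depend on library size. *Cox6a2*, the heart and skeletal muscle form, stands beside the general form *Cox6a1*. It was at 11.6, 9.07 and 8.59 CPM in Normoxia miR-125b and 19.4, 20.4 and 18.8 in hypoxia, at 9.63, 11 and 11.2 against 19.3, 23.0 and 21.5 with Plus A, and at 8.02, 8.52 and 7.83 against 17.7, 29.8 and 22.4 with Trim A. With Trim AG the values were 3.38, 3.8 and 3.63 against 31.0, 45.4 and 36.4, and with Trim AGU 3.77, 3.8 and 3.31 against 19.3, 51.8 and 26.7. Hypoxia was higher in every library of every mimic, and the normoxia levels of Trim AG and Trim AGU lay below all others. The rise was 0.99 ± 0.12, 1.00 ± 0.10, 1.5 ± 0.18, 3.39 and 3.18 ± 0.38 (adjusted p = 9.27e-07 to 0.00126), and held without any single library and without the length trend. In normoxia Trim AG and Trim AGU were below miR-125b by -1.44 ± 0.15 and -1.43 ± 0.16 (adjusted p = 0.000106 and 0.000434). In hypoxia Trim AG was above it by 0.94 ± 0.14 (adjusted p = 0.00102) and above MC by 1.05 ± 0.15, while Trim AGU was 0.74 above miR-125b without passing (adjusted p = 0.235).

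The share of *Cox6a2* in the pair followed: 3.84% ± 0.297 in Normoxia and 8.06% ± 0.35 in Hypoxia miR-125b, and 1.26% ± 0.167 and 9.08% ± 1.19 with Trim AG. It was 7.34% in Hypoxia MC. *Cox6a1* itself was at 265, 256 and 253 CPM in Hypoxia miR-125b, 395, 450 and 456 in Hypoxia Trim AG, and 389, 526 and 481 in Hypoxia Trim AGU. It was above miR-125b by 0.74 ± 0.08 with Trim AG (adjusted p = 0.000237), which held without each single library, and by 0.85 with Trim AGU, which did not.

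*Cox8b*, the muscle form beside the general form *Cox8a*, separated MC from all other groups. It was at 4.64, 3.79 and 4.56 CPM in Hypoxia MC and between 0.0349 and 1.59 in the other 30 libraries, with no overlap. Against MC the log2 difference was -2.92 ± 0.22, -2.70 ± 0.30, -3.30 ± 0.24, -3.98 ± 0.24 and -2.38 ± 0.54 over the 5 mimics (adjusted p = 7.41e-07 to 0.0189). The call with Trim AGU was lost without any 1 of the Hypoxia MC libraries or Hypoxia Trim AGU replicate 3. The share of *Cox8b* in the pair was 2.88% ± 0.362 with MC and 0.094% to 0.534% elsewhere. The muscle marker sum given above was also highest in Hypoxia MC, but it did not follow this share over the other groups. Normoxia Trim AG had sums of 342 to 374 CPM and a share of 0.154%, and Hypoxia Plus A 207 to 219 CPM and 0.534%. *Cox6a2*, the other muscle form, was not set apart in MC, at 19.7, 19.2 and 15.7 CPM.

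*Cox7b2*, a paralog of *Cox7b* known from testis, was lower with Trim AG in both conditions. It was at 6.63, 6.38 and 5.03 CPM in Normoxia and 5.72, 5.27 and 5.12 in Hypoxia miR-125b, against 0.965, 1.90 and 1.10 and 1.4, 1.18 and 1.28 with Trim AG. The groups did not overlap, and the difference from miR-125b was -2.18 ± 0.26 in normoxia (adjusted p = 0.000214) and -2.06 ± 0.16 in hypoxia (adjusted p = 5.34e-05), with -1.87 ± 0.21 against MC. Trim AGU was lower in normoxia, at 3.84, 3.07 and 2.84 CPM (-0.89 ± 0.19, adjusted p = 0.00792), and at 1.90, 5.28 and 3.39 in hypoxia, where it was not called. No oxygen comparison called it. Its share of the pair was 9.72% to 11.2% in the groups of MC, Trim A, Plus A and miR-125b, 2.95% and 2.40% with Trim AG, and 6.76% and 5.06% with Trim AGU.

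*Cox7a2l*, which encodes a factor that joins complexes III and IV into supercomplexes, rose in hypoxia beside its relative *Cox7a2*. It was at 147, 123 and 123 CPM in Normoxia and 188, 187 and 183 in Hypoxia miR-125b, and at 128, 113 and 123 against 185, 228 and 218 with Trim AG. No hypoxia library was below a normoxia library of its mimic. The rise was 0.48 ± 0.07, 0.30 ± 0.08, 0.86 ± 0.12, 0.80 ± 0.10 and 1.05 ± 0.19 (adjusted p = 0.00018 to 0.0106) and held without any single library. *Cox7a2* fell by 0.26 with miR-125b and 0.43 with Plus A and was between -0.08 and 0.31 with the Trim isomiRs, none of them called. The 0.31 with Trim AGU turned to -0.12 without the length trend. The share of *Cox7a2l* in the pair was 37.5% to 44.7% in the normoxia groups and 51.1% to 57.4% in the hypoxia groups.

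*Ndufa4l2*, the hypoxia-induced paralog of the complex IV subunit *Ndufa4*, was scarce at 0.174 to 1.18 CPM. It rose by 0.95 ± 0.33, 1.03 ± 0.38 and 1.12 ± 0.32 with miR-125b, Plus A and Trim AG (adjusted p = 0.0382, 0.0446 and 0.0147), all 3 lost in DESeq2, and was at 0.84 and 1.37 with Trim A and Trim AGU without passing. *Ndufa4* fell by 0.32 with miR-125b and 0.37 with Plus A and was at 0.11 to 0.34 with the Trim isomiRs, none of them called. The 0.34 with Trim AGU turned to -0.05 without the length trend. *Cox4i2*, the form of subunit IV tied to low oxygen in lung, was barely detected. Its count was 0 in all 3 Hypoxia MC libraries and its level at most 0.554 CPM in any library. With Trim AG it was at 0.482, 0.38 and 0.486 CPM in normoxia (40 counts in all) and 0.119, 0.0252 and 0.116 in hypoxia (11 counts). It passed the filter on low counts in this oxygen comparison alone, through the normoxia libraries where it is high, so its difference is given without a test, although it is 1 of the 2 lower nuclear subunits of complex IV counted above for Trim AG. *Cox4i1*, the general form, was at 255 to 684 CPM throughout.

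**Figure D5:**
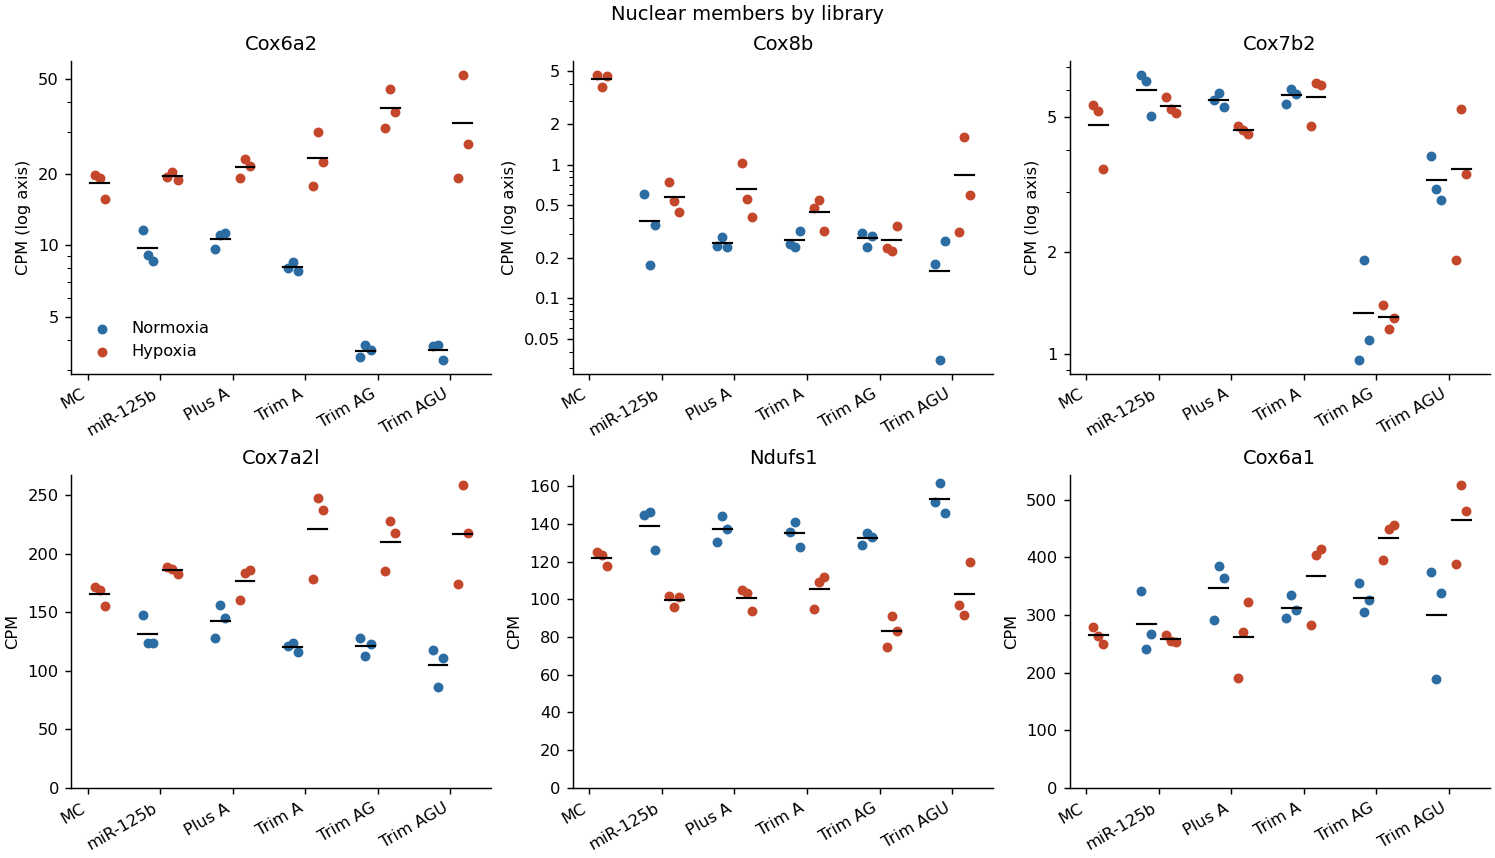
CPM in each library of *Cox6a2*, *Cox8b* and *Cox7b2* on log axes and of *Cox7a2l*, *Ndufs1* and *Cox6a1* on linear axes from 0, with lines at group means, blue for normoxia and red for hypoxia. *Cox8b* is high in Hypoxia MC only (3.79 to 4.64 CPM), *Cox6a2* is lowest in Normoxia Trim AG and Trim AGU (3.31 to 3.8 CPM), and *Cox7b2* is lowest with Trim AG.

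The promoters of all nuclear members with a RefSeq window (GRCr8) were searched for the core of the hypoxia response element. This is the letters ACGTG or GCGTG on either strand, and windows ran from 250 bases before to 50 after the gene start. The core was found in 50 of the 82 nuclear members with such a window (61.0%), against 11788 of all 27457 windows (42.9%). These members were not chosen by how they moved. *Cox6b1*, *Atp5f1* and *Ndufa13* are counted under both of their identifiers, which share a window. The matches below are shown because these 3 isoforms or subunits carry the oxygen or MC differences above, with the matched letters in capitals.
Cox7a2l, chr6:16936462-16936490, plus strand: gagaccccgcctACGTGccgggccccgcc
Cox8b, chr1:205408412-205408440, minus strand: agctcatcacctACGTGttgaggggtcac
Cox8b, chr1:205408393-205408421, minus strand: gaggggtcacagCACGTtcctggggcaga
Ndufv3, chr20:9613703-9613731, plus strand: actcagtcagagGCGTGgcctctgggagc
They begin at -100, -155, -136 and -71 from the start, and the match at -136 is read on the opposite strand. *Cox8b* has a further match at -5 and *Ndufv3* others at 1 and 37. The windows of *Cox6a2*, *Ndufa4l2*, *Cox7b2* and *Ndufs1* hold none of these letters. A match is a description of sequence and not a site of binding.

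Other genes of the organelle were read from fixed lists, given as higher and lower calls in hypoxia against normoxia for the 5 mimics. They stand beside 24.7% and 26.1%, 23.9% and 25.3%, 23.4% and 24.2%, 27.3% and 27.3%, and 15.4% and 14.8% of all genes. Of 73 proteins of the mitochondrial ribosome, 14 and 17, 9 and 24, 23 and 5, 32 and 6, and 21 and 0 were called. With miR-125b these are 19.2% and 23.3%, both below the shares of all genes, while the higher calls with the trimmed forms are 31.5%, 43.8% and 28.8%. Of 29 genes for the copying, transcription and translation of the mitochondrial genome, 6 and 7, 8 and 4, 9 and 4, 14 and 5, and 5 and 4 were called, with 20.7% and 24.1% for miR-125b and 17.2% and 13.8% for Trim AGU, near the shares of all genes. *Top1mt*, the mitochondrial topoisomerase, rose by 0.66 to 1.27 and *Ssbp1*, which coats single-stranded mitochondrial DNA, by 0.39 to 0.88, while *Grsf1*, which binds mitochondrial RNA, fell in all 5 (-0.43 to -0.56). Of 26 electron carriers and enzymes of the tricarboxylic acid cycle, 2 and 15, 2 and 15, 2 and 8, 7 and 10, and 3 and 3 were called, with *Idh2* (-0.76 to -1.45), *Ogdh* and *Cs* lower in all 5. Of 28 tested HIF targets and glycolytic genes, 23 and 2, 18 and 3, 21 and 2, 17 and 3, and 20 and 1 were called, with *Pkm* and *Aldoa* higher in all 5 by 0.52 to 1.15 and 0.51 to 1.11. Of 14 tested regulators of respiratory genes (15 with Plus A), 6 and 3, 6 and 2, 5 and 2, 8 and 1, and 3 and 1 were called. The higher calls are 42.9%, 40%, 35.7%, 57.1% and 21.4%, and the lower ones 21.4%, 13.3%, 14.3%, 7.14% and 7.14%. Among the regulators called higher were *Lonp1*, the matrix protease (0.94 to 1.72), and *Sirt3*, a mitochondrial deacetylase (0.69 to 1.29).

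Against MC in hypoxia the same lists stand beside 29.5% and 30%, 28% and 28.6%, 26% and 26.1%, 29.8% and 29.6%, and 15.3% and 14.6% of all genes. The ribosome list gave 26 and 8, 18 and 14, 31 and 2, 43 and 4, and 23 and 1, with *Mrpl12* higher by 0.41 to 1.42. The list of mitochondrial genome expression gave 8 and 5, 10 and 5, 10 and 3, 12 and 4, and 4 and 3, of which the 27.6% higher with miR-125b and 13.8% with Trim AGU are near the shares of all genes, with *Top1mt* higher by 1.11 to 1.44, *Tufm*, an elongation factor, by 0.35 to 0.66 and *Lrpprc*, which stabilizes mitochondrial mRNAs, by 0.22 to 0.61. Of 14 tested regulators, 8 and 0, 9 and 0, 8 and 1, 10 and 0, and 6 and 0 were called, with 57.1%, 64.3%, 57.1%, 71.4% and 42.9% higher. *Pprc1*, a coactivator, and *Gabpb1*, a subunit of a factor that binds promoters of nuclear respiratory genes, were higher in all 5. Assembly factors outside the name rule gave 9 and 5, 8 and 6, 10 and 1, 15 and 3, and 9 and 0, of which the higher 28.1% and 25% with miR-125b and Plus A do not exceed the shares of all genes, led by *Coa5* (0.91 to 1.33) and *Bcs1l* (0.83 to 1.32). Carriers and the cycle gave 8 and 8, 7 and 8, 9 and 3, 14 and 5, and 7 and 2, with 30.8% in each direction for miR-125b and 26.9% and 30.8% for Plus A, near the shares of all genes, and *Cycs*, cytochrome c, was higher by 0.31 to 0.93. HIF targets and glycolysis had more lower than higher calls, with 3 and 18, 2 and 22, 2 and 17, 1 and 16, and 0 and 7, and *Gpi* lower by -0.54 to -1.34.

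Some members could not be read. *Sdhaf1*, *Cox6b2*, *Cox8c* and a second entry of *Ndufa13* passed the filter on low counts in no comparison. *Ndufa1* switched between libraries of the same group, at 14.6, 7.84 and 0.316 CPM in Hypoxia miR-125b and 13.4, 0.108 and 0.312 in Normoxia Plus A, so its calls against MC (4.37 and 3.45 with miR-125b and Plus A) and of Trim AG against miR-125b (-4.71) rest on single libraries. *Cox6b1*, *Atp5f1* and *Ndufa13* are listed under 2 identifiers each, and *Ndufv3-ps1* resembles *Ndufv3*, so reads may have been split between copies. *Ndufv3-ps1* was lower than with MC by -0.80, -0.59, -0.86 and -1.19 in the first 4 comparisons, where *Ndufv3* was higher by 0.38, 0.42, 0.31 and 0.48.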

How the data were processed

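Poly-A RNA was sequenced from non-stranded libraries. For each gene and library the authors deposited a raw count and an FPKM value, a count scaled by gene length and library total, in 11 tables, each for 1 pair of groups. The submitters' processing notes name HISAT2 and StringTie, with no version or role, and the genome build is not given in the sources used here. The tables also hold the authors' own fold changes and p-values, which were not used, nor was a table that gives group means only. Tables were joined on the gene identifier with Python 3.11.15 and pandas 2.3.3, and a gene missing from a table was given a count of 0 (another table listed at most 1 count). No library's counts conflicted between tables.

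Counts were scaled by TMM, filtered with filterByExpr and tested with the quasi-likelihood test of edgeR 4.0.16 in R 4.3.3, using only the libraries of the groups compared, in 18 comparisons and 4 differences of oxygen responses. Adjusted p-values (Benjamini-Hochberg, threshold 0.05) cover all genes tested. The standard error given beside a log2 fold change is its size divided by the root of edgeR's F. CPM values use TMM library sizes. Isoform shares and levels between genes use the deposited FPKM. Totals were 28361216 to 42672584 counts, and errors are spreads between 3 libraries, which include counting error.

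The members and lists were chosen with earlier results of these data known. Genes named are the 13 mitochondrial members, members of isoform pairs, for each comparison up to 5 called nuclear members per direction with the largest fold change and a mean of at least 1 CPM, and up to 3 genes per list that were called in most comparisons. Genes of the same subunit or role, and members called in all 5 comparisons, were named after their values were seen. Alternatives were DESeq2 1.42.0, no filter, scaling without mitochondrial genes, a replicate block, each library left out and, added after the data were seen, offsets without each library's lowess trend on log2 gene length (span 0.3). The fit was tested on simulated data with known fold changes. Promoters and the miRNA come from RefSeq (GRCr8), and 82 of 93 nuclear members matched a promoter by symbol or synonym. One member is not reported here by name.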

Additional observations from a re-analysis of the deposited data

Results flagged for a closer look

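Genes whose oxygen response with an isomiR differed from that with miR-125b, by the test of the difference itself in edgeR (log2 difference, adjusted p below 0.05), are given here as values. The difference was called for 36 members with Trim AG and for 1 with Trim AGU, *Cox6a2*.

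With Trim AG the difference was 2.36 for *Cox6a2*, 1.01 for *Mt-nd4l*, 0.92 for *Cox6b1* (ENSRNOG00000034161), 0.87 for *Ndufaf4*, 0.68 for *Ndufc2*, 0.64 for *Ndufaf5*, 0.63 for *Atp5l*, 0.59 for *Ndufb9*, 0.59 for *Mt-co2*, 0.59 for *Mt-nd2*, 0.55 for *Mt-nd1*, 0.52 for *Cox6a1*, 0.49 for *Cox5a*, 0.49 for *Ndufv3*, 0.49 for *Uqcrq*, 0.46 for *Ndufs8*, 0.42 for *Mt-atp6*, 0.36 for *Atp5g3* and 0.28 for *Atp5g1*. The other 17 lay between 0.29 (*Atp5sl*) and 0.57 (*Ndufa5*), and *Atp5g1* alone of the 36 lost its call without the length trend (0.21, adjusted p = 0.0958). With Trim AGU it was 2.21 for *Cox6a2*. The differences of *Cox6a2*, *Mt-nd4l*, *Ndufaf4*, *Ndufb9*, *Cox5a* and *Ndufv3* with Trim AG kept their calls under all 17 alternatives, and that of *Cox6a2* with Trim AGU lost its call in 11 of 17 (1.65 to 2.49). Replicates 2 and 3 of Hypoxia Trim AG, in which short genes stand high, lie in this comparison, and with the length trend removed 43 members were called.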

How the results depend on the processing

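Counts of called members are given here as the reported count with its lowest and highest value when each library in turn was left out, higher before lower. No called fold change that was refitted changed its sign, while the balance of higher and lower members did so for Plus A against miR-125b in hypoxia without the length trend. In hypoxia against normoxia they were 18 (10 to 22) and 32 (27 to 39) with miR-125b, 8 (5 to 11) and 37 (30 to 42) with Plus A, 31 (12 to 63) and 6 (2 to 8) with Trim A, 49 (34 to 69) and 6 (2 to 11) with Trim AG, and 27 (4 to 47) and 1 (0 to 3) with Trim AGU. Against MC they were 54 (48 to 58) and 9 (7 to 12), 31 (21 to 44) and 11 (8 to 15), 53 (31 to 85) and 3 (2 to 4), 71 (55 to 86) and 5 (4 to 6), and 36 (0 to 74) and 1 (0 to 3), in the same order. Against miR-125b in hypoxia they were 2 (1 to 5) and 8 (1 to 21) with Plus A, 0 (0 to 79) and 0 (0 to 1) with Trim A, 42 (13 to 75) and 5 (2 to 5) with Trim AG, and 1 (0 to 22) and 0 (0 to 2) with Trim AGU. In normoxia they were 0 and 0 with Plus A and with Trim A, 2 (1 to 4) and 15 (6 to 24) with Trim AG, and 0 (0 to 1) and 8 (3 to 16) with Trim AGU. Differences of oxygen responses were 0 with Plus A, 0 (0 to 67) with Trim A, 36 (10 to 69) with Trim AG and 1 (0 to 59) with Trim AGU.

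Other settings moved these counts by over 1.5 times. For hypoxia against normoxia, DESeq2 gave 5 higher with Plus A and 3 lower with Trim AGU, no filter gave 2 lower with Trim AGU, and without the length trend 14, 15 and 5 were lower with the 3 trimmed forms and 16 higher with Trim AGU. Against MC, DESeq2 gave 57 higher with Trim AGU, and without the length trend 17, 6 and 8 were lower with miR-125b, Trim A and Trim AG. Against miR-125b in hypoxia, DESeq2 gave 17 lower with Plus A, 3 higher and 1 lower with Trim A, and 5 higher and 1 lower with Trim AGU, no filter gave 15 lower with Plus A, 1 with Trim A and 3 with Trim AG, and without the length trend Plus A gave 5 higher and 4 lower and Trim A 2 and 1. Against miR-125b in normoxia, Plus A without replicate 1 of both groups gave 4 higher and 1 lower, DESeq2 and no filter gave 1 lower with Trim A, no filter gave 1 higher with Trim AGU, and without the length trend 7 and 2 were higher with Trim AG and Trim AGU. DESeq2 called 5, 4 and 2 oxygen responses with Plus A, Trim A and Trim AGU. The cause of these shifts was not tested. Scaling without mitochondrial genes moved no count by over 1.5 times.

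Replicate numbers did not pair the libraries: correlations of same-numbered libraries ran from -0.161 to 0.0756, and in no comparison were all 3 over 0.1. With the replicate number as a block, Trim A and Trim AG gave 2 and 3 lower in hypoxia against normoxia and Trim AGU 5 higher and 0 lower, Trim AGU gave 20 higher than MC, and against miR-125b in hypoxia Plus A gave 4 lower, Trim AG 2 lower and Trim AGU 0 higher, with 0 oxygen responses with Trim AGU. Among the named fold changes, 79 refits lost the call and 1161 kept it under the settings that use every library, and 406 lost and 1184 kept it where 1 library was left out.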
